A study of Mus musculus with 15 samples.

Results

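Hemgn and 5 other genes of the red cell lineage (Alas2, Gata1, Klf1, Epor and Slc4a1) were followed through 15 mouse arrays, of T cells and of T cell lymphomas. The 6 genes were taken by name from the 18193 genes with a probe set of their own. Hemgn was chosen by its measured signal, which was higher in activated than in resting T cells of these arrays, and the other 5 were set beside it as genes of the same lineage. The difference between activated and resting cells that brought Hemgn here is therefore given as a description, for all 6 genes, with no test. All 6 were among the 11902 genes that reached a signal of 100 in at least 3 arrays. Hemgn, Gata1 and Epor did so in 11, 11 and 10 arrays, Alas2 in 7, Slc4a1 in 5 and Klf1 in 4, and for Klf1 all 4 were lymphomas.

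The arrays fall into 3 groups, and every donor T cell in them lacked p53. The 3 resting and 3 activated samples were T cells of 5-week-old p53 KO C57Bl/6 mice, the latter activated in vitro; the sort was from liver or from spleen, and which organ a given sample came from is not stated. The growth protocol of these samples speaks of PBS or killed S. pneumoniae injected again and again into p53 deficient mice, without saying whether these donors had either. The 9 lymphomas (mPTCL 1 to 9, mouse peripheral T cell lymphomas) grew in CD3KO C57BL/6 recipients that had been given p53KO T cells, and were sorted from the liver. Without CD3, through which the T cell receptor signals, these recipients lack T cells of their own, but they keep their other blood cells. The deletion of p53 itself is not analysed here. Nothing in the labels says that replicates are of different mice, so a p-value here measures the spread between these samples, which may be technical.

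Red cells arise from progenitors in bone marrow and, in mice, also in spleen. The hormone erythropoietin acts through its receptor, and transcription factors of the GATA and Krüppel-like families switch on the genes for haem synthesis, globin and the membrane skeleton. Hemgn encodes hemogen, a nuclear protein of blood-forming cells that is under the control of Gata1 in the red cell lineage. Gata1 and Klf1 are the transcription factors that direct that lineage, and Epor is the erythropoietin receptor. Alas2 is the erythroid form of the first enzyme of haem synthesis. Slc4a1 is band 3, the anion exchanger of the red cell membrane. Peripheral T cells are not a usual site of the late genes of this programme.

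Because Gata1 binds GATA sequences, the 250 bases before the start of each gene were read for them. RefSeq's GRCm38.p6 annotation gave this window for 5 of the 6 genes, without Slc4a1. The windows of Hemgn, Alas2 and Klf1 are shown because these are the genes whose signals the results turn on, with capitals for matches on either strand to 4 spellings of the motif. The spelling AGATAA was searched, then AGATAG, likewise TGATAA and also TGATAG, and matches that overlap would count once each.
Hemgn, chr4:46404184-46404433, minus strand: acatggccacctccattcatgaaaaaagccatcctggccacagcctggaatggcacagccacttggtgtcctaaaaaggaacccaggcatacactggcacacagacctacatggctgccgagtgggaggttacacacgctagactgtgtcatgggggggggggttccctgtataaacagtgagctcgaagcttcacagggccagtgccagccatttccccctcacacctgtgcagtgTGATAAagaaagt
Alas2, chrX:150547167-150547416, plus strand: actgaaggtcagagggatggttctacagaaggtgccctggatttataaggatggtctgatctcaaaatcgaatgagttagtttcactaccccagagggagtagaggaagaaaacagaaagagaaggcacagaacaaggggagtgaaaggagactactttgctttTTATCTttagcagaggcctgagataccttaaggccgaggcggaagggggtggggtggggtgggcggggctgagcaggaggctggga
Klf1, chr8:84901732-84901981, plus strand: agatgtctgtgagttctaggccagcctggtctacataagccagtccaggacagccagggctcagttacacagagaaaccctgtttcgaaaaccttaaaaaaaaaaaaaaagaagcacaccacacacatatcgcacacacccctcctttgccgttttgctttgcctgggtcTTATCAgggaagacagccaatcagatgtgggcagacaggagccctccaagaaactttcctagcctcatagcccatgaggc
The match in Hemgn, TGATAA, began 13 bases before the start, at position -13. Those in Alas2 (TTATCT) and Klf1 (TTATCA) are on the other strand and began at positions -86 and -80. Epor also had 1 match, TTATCT at position -54, and Gata1 had none, so 4 of 5 windows held a match. Of 32851 promoter windows of this length, 8718 (26.5%) held at least 1. A match describes letters and does not show that a factor binds there.

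Every array had been scaled to the same 2% trimmed mean signal of 500. Their median signal was 91.7 to 99.2 in resting cells, 110 to 118 in activated cells and 68.0 to 116 in lymphomas. The ratio of 3′ to 5′ actin probes, a sign of RNA and labelling quality, was 1.35 ± 0.13 (SD, n = 3) for the resting samples, 1.52 ± 0.03 (n = 3) for the activated ones and 1.93 ± 0.40 (n = 9) for the lymphomas. Arrays of 1 group correlated at 0.968 to 0.976, 0.970 to 0.974 and 0.761 to 0.924 in the same order. Cd3e, a defining T cell gene, had a signal of 2795 to 3100 in resting cells, 2098 to 2701 in activated cells and 23.0 to 4965 in lymphomas, with mPTCL 3 and 4 the lowest, so the labelled cell type is not borne out by this marker in those 2 lymphomas. The summed signal of the 4 T cell markers on the array, of 6 listed, was 40688 to 57960, 38782 to 41931 and 2866 to 31133 in the 3 groups. Over the lymphomas Cd3g ran from 1125 to 16210, Cd3d from 393 to 7139 and Cd2 from 47.9 to 18015. The sum was 8403 in mPTCL 3 and 2866 in mPTCL 4, beside 9140 in mPTCL 5 and 8833 in mPTCL 6.

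Hemgn was at or near the lower limit in resting T cells and higher in every other array. Its signal was 43.7, 1.81 and 18.3 in resting samples 1 to 3, and 1413, 823 and 1201 in activated samples 1 to 3. In mPTCL 1 to 9 it was 1702, 101, 238, 98.0, 873, 629, 1155, 4275 and 7375. No activated array and no lymphoma reached down to the highest resting array, and the lymphomas spanned a 75.3-fold range that ran both below and above the activated cells. mPTCL 2 and 4 were the lowest lymphomas, and mPTCL 8 and 9 stood above all other arrays.

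Values under 32 were raised to 32, which is 5 on the log2 scale, before means were taken, and 2 of the 3 resting values of Hemgn lay under it. On that scale the mean of Hemgn was 5.15 ± 0.26 (SD, n = 3) when resting, 10.13 ± 0.40 (n = 3) when activated and 9.56 ± 2.20 (n = 9) over the lymphomas. Activated cells were thus at least 31.5-fold above resting cells, a log2 difference of 4.98 with a standard error (SE) of 0.28. Lymphomas were at least 21.3-fold above resting cells (4.41, SE 1.16), with 9 of 9 above the highest resting array; 8.36% of all genes tested were higher there with no overlap. Against activated cells the lymphomas differed by -0.56 (SE 1.16), with 3 above the highest activated array and 4 below the lowest, so the groups overlapped; 9.78% of all genes tested were higher there with no overlap and 12.4% lower. The choice of Hemgn used the resting and activated values, so none of these differences is given a test.

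**Figure D1:**
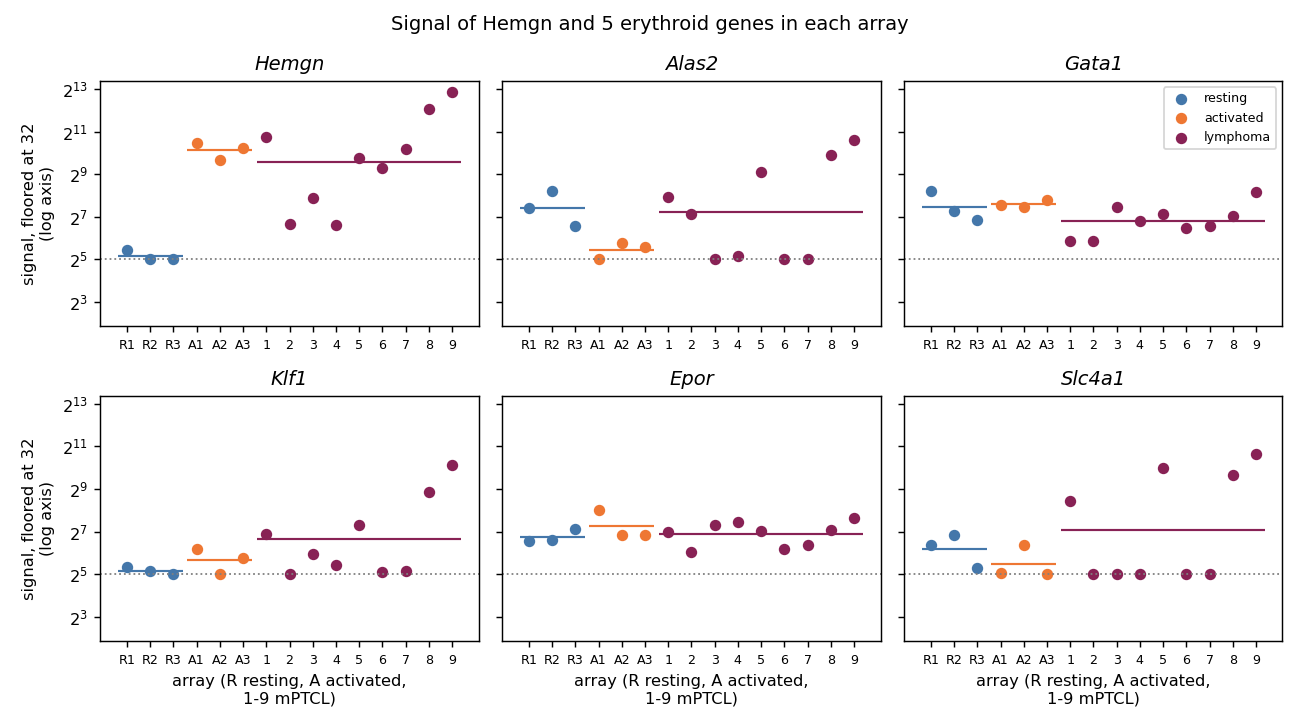
Signal of Hemgn, Alas2, Gata1, Klf1, Epor and Slc4a1 in each of the 15 arrays, on a log axis with values under 32 drawn at 32 (dotted line). Points are arrays, and horizontal lines are group means of the log2 values. Hemgn is high in activated cells, where Alas2 is low. Among the lymphomas, Alas2, Klf1 and Slc4a1 are highest in mPTCL 1, 5, 8 and 9.

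The transcription factor Gata1 did not follow Hemgn. Its signal was 298, 156 and 116 in resting samples 1 to 3, 188, 175 and 220 in activated samples 1 to 3, and 57.6, 57.2, 174, 110, 137, 88.2, 93.1, 131 and 287 in mPTCL 1 to 9. The resting and activated arrays overlapped, with means of 7.45 ± 0.70 and 7.59 ± 0.17 (SD, n = 3 each) and a difference of 0.14 (SE 0.37), whose sign turned in 3 of 18 alternative settings, to -0.11 under quantile normalisation and -0.14 when arrays were centred on their median. Of the lymphomas, 8 of 9 lay below the lowest activated array and 5 of 9 below the lowest resting array. The lymphoma mean of 6.80 ± 0.74 (n = 9) differed from activated cells by -0.79 (SE 0.45), which did not pass the test (limma, Benjamini-Hochberg adjusted p = 0.220). Against resting cells the difference was -0.65 (SE 0.48, limma adjusted p = 0.366).

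Klf1 acts later in the lineage and switches on adult globin and membrane genes. Its signal was 40.8, 35.4 and 23.4 in resting samples 1 to 3, 72.1, 10.5 and 54.1 in activated samples 1 to 3, and 119, 3.29, 60.6, 43.5, 156, 33.9, 34.8, 464 and 1107 in mPTCL 1 to 9. No normal array reached 100, and the 4 lymphomas that did were mPTCL 1, 5, 8 and 9. Activated cells were above resting cells by 0.48 (SE 0.32) with overlapping arrays. The lymphoma mean of 6.64 ± 1.83 (SD, n = 9) was above resting cells (5.17 ± 0.18, n = 3) by 1.47 (SE 0.98, limma adjusted p = 0.316) and above activated cells (5.64 ± 0.59, n = 3) by 0.99 (SE 0.99, limma adjusted p = 0.496); neither passed.

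Of the 6 genes, Epor varied least among the 9 lymphomas on the log2 scale, with an SD of 0.58. Its signal was 94.5, 96.7 and 137 in resting samples 1 to 3, 261, 115 and 114 in activated samples 1 to 3, and 127, 64.8, 156, 177, 130, 71.6, 82.8, 136 and 197 in mPTCL 1 to 9. All 3 groups overlapped, and activated sample 1 was the highest array of all. The differences were 0.49 (SE 0.38) for activated less resting cells, 0.14 (SE 0.38, limma adjusted p = 0.833) for lymphomas less resting cells and -0.35 (SE 0.41, limma adjusted p = 0.571) for lymphomas less activated cells. The last turned to 0.04 when arrays were centred on their median and to 0.05 without activated sample 1.

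Alas2 ran opposite to Hemgn in the normal cells. Its signal was 171, 299 and 95.8 in resting samples 1 to 3 and 15.3, 54.4 and 47.4 in activated samples 1 to 3. In mPTCL 1 to 9 it was 244, 141, 8.75, 34.9, 544, 20.4, 6.53, 945 and 1559. Every activated array lay below every resting array, with means of 5.44 ± 0.40 and 7.41 ± 0.82 (SD, n = 3 each) and a difference of -1.96 (SE 0.45). The lymphomas ran from below both normal groups to above them, with a mean of 7.20 ± 2.28 (n = 9). They differed from resting cells by -0.21 (SE 1.22, limma adjusted p = 0.926), a sign that turned in 6 of 24 alternative settings, and from activated cells by 1.75 (SE 1.21, limma adjusted p = 0.319).

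Slc4a1, of the finished red cell's membrane, separated low from high lymphomas. Of its 3 probe sets, that of highest mean had a signal of 83.0, 114 and 38.8 in resting samples 1 to 3, 32.9, 82.0 and 30.1 in activated samples 1 to 3, and 351, 30.9, 21.3, 3.54, 1028, 9.17, 2.91, 809 and 1624 in mPTCL 1 to 9. mPTCL 1, 5, 8 and 9 lay above every normal array, and the other 5 lymphomas lay below 32. The other 2 probe sets of the gene also had their 4 highest lymphomas there. One gave 45.2, 167, 185 and 290 in mPTCL 1, 5, 8 and 9, with resting sample 2 at 47.8, and the other gave 370, 1136, 1033 and 2573. Activated less resting cells gave -0.70 on the log2 scale (SE 0.52), with overlapping arrays. Lymphomas, at 7.09 ± 2.54 (SD, n = 9), were above resting cells (6.16 ± 0.80, n = 3) by 0.93 (SE 1.35, limma adjusted p = 0.670) and above activated cells (5.47 ± 0.77, n = 3) by 1.62 (SE 1.35, limma adjusted p = 0.409); neither passed. Slc4a2, the anion exchanger of cells in general, had a signal of 938 to 1197 in resting cells, 991 to 1038 in activated cells and 446 to 872 in lymphomas; its differences of -0.92 and -0.86 for lymphomas less resting and less activated cells (limma adjusted p = 0.0200 and 0.0211) were under 2-fold and not called.

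Between activated and resting cells, Hemgn was higher and Alas2 lower with no overlap of the arrays, and the other 4 genes overlapped. Across all genes tested, 12.7% were called in this comparison (adjusted p under 0.05 and at least a 2-fold change), 8.45% as higher and 4.23% as lower; 23.3% were higher with no overlap, and 23.3% lower. Since this comparison chose Hemgn, nothing is read from the count. Of the 5 genes other than Hemgn, 0 were called between lymphomas and resting cells by limma, where 13.9% of all genes were (7.03% higher and 6.84% lower). Likewise 0 of the 5 were called between lymphomas and activated cells, where 15.3% of all genes were (7.04% higher and 8.28% lower). None of the 5 had an unadjusted p under 0.05 in either, with 0 in each, and no other tool was run. The 2 lymphoma comparisons share the 9 lymphomas, so they are not independent of each other.

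**Figure D2:**
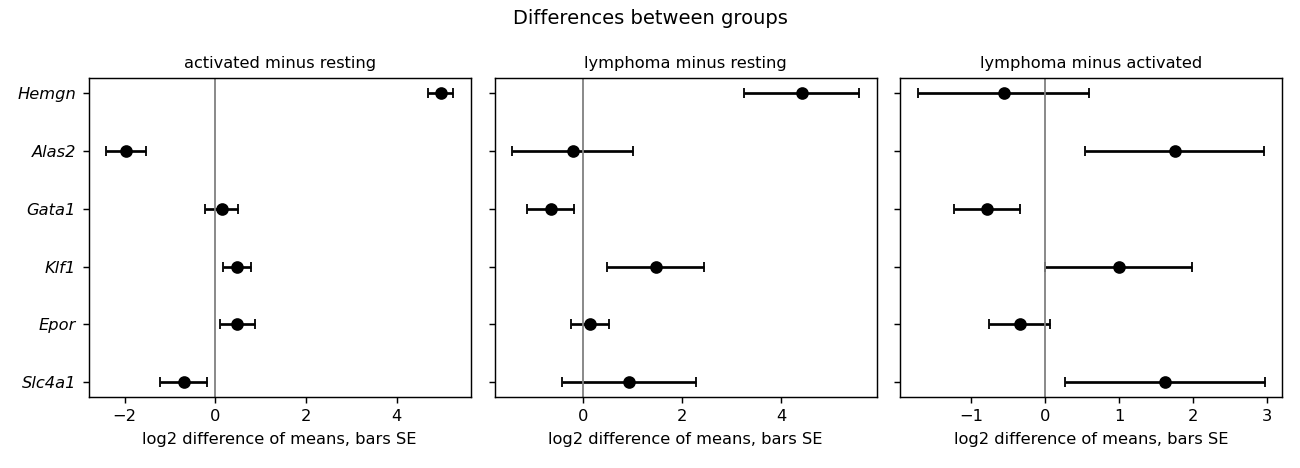
Log2 difference of group means for the 6 genes in the 3 comparisons, with bars of 1 standard error. Hemgn lies at 4.98 and 4.41 against resting cells and at -0.56 between lymphomas and activated cells. The bars of Hemgn, Alas2, Klf1 and Slc4a1 widen most in the lymphoma comparisons, and that of Epor hardly changes.

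Globin transcripts separated resting from activated cells in the direction of Alas2, not of Hemgn. A probe set listed with 4 beta-globin symbols, chosen after its values were seen, had a signal of 10026, 17342 and 9377 in resting samples 1 to 3 and 49.6, 365 and 40.2 in activated samples 1 to 3. In mPTCL 1 to 9 it was 22416, 16398, 10285, 285, 28091, 1741, 440, 31032 and 27913. The resting arrays were thus high for this probe set and low for Hemgn, and the activated arrays the reverse. The 3 probe sets listed with both alpha-globin symbols, also looked at after their values were seen, gave 910 to 2418, 33.0 to 184 and 2569 to 6844 in resting cells and 35.1 to 84.1, under 32 in all 3 arrays, and 759 to 1118 in activated cells. None of the 3 overlapped, with the resting arrays higher. Of all genes tested, 23.3% were lower in activated than in resting cells with no overlap. In the lymphomas mPTCL 1, 5, 8 and 9 again had the 4 highest values, but mPTCL 2 and 3 came next for globin and were among the 3 lowest for Hemgn. In bulk samples, fewer red cell precursors and less RNA per cell cannot be told apart, and what part red cells or their RNA had in any of these values was not tested. Hba-a2, the globin gene with the highest mean among probe sets of 1 symbol, ran from 152 to 596 over all arrays, did not separate resting from activated cells and was called in no comparison.

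**Figure D3:**
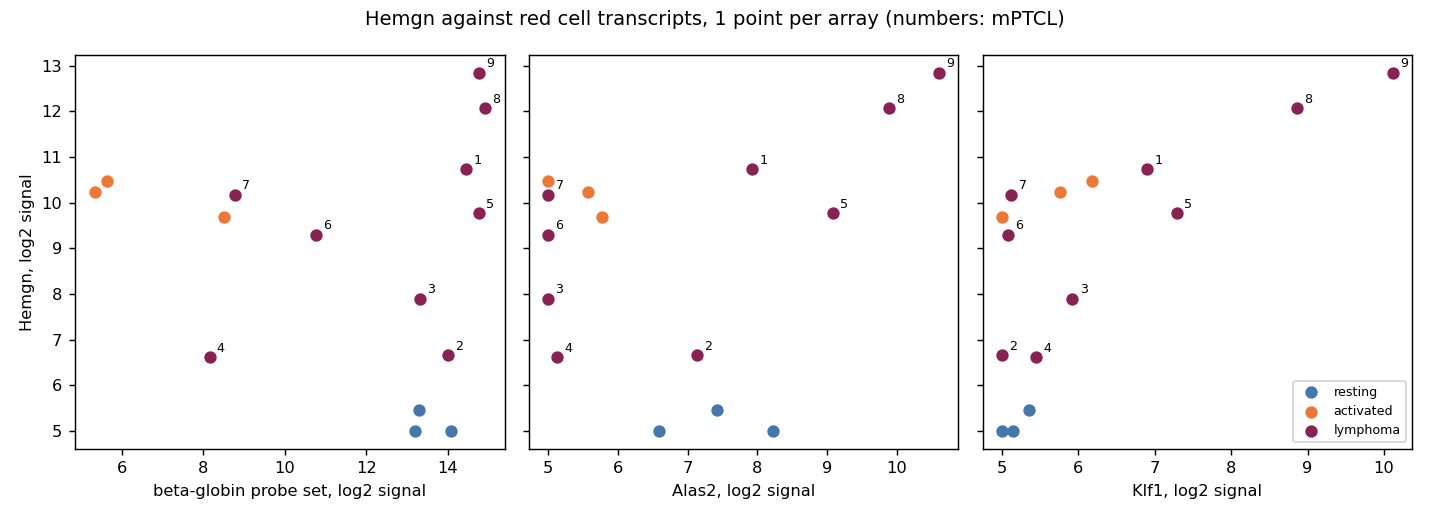
Log2 signal of Hemgn (vertical axis) against the beta-globin probe set, Alas2 and Klf1 (horizontal axes), 1 point per array, with mPTCL numbers beside the lymphomas. Resting arrays sit at high globin and low Hemgn, activated arrays at low globin and high Hemgn, and mPTCL 8 and 9 are high for both.

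Across the lymphomas, Alas2, Klf1 and Slc4a1 shared the same 4 highest arrays, mPTCL 1, 5, 8 and 9. The summed neutrophil markers were 46432, 101927, 40033 and 16403 in these 4, beside 26138, 383, 59279, 2289 and 678 in mPTCL 2, 3, 4, 6 and 7. The summed B cell markers were 21266, 52099, 962 and 657 in the same 4, and 107 to 3238 in the other 5. The part of these cells in the signals was not tested. The order of Hemgn was mPTCL 9, 8, 1, 7, 5, 6, 3, 2 and 4, so mPTCL 7 took a place among its 4 highest. mPTCL 7 had a Hemgn signal of 1155, beside an Alas2 signal of 6.53 and an Slc4a1 signal of 2.91. mPTCL 6 had 629 for Hemgn beside 20.4 and 9.17, and mPTCL 3 had 238 beside 8.75 and 21.3. In these 3 lymphomas Hemgn was above every resting array while Alas2 and Slc4a1 were under 32.

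Relations over the 9 lymphomas were computed for 20 pairs, among 5 of the 6 genes and with globin; Slc4a1 was left out because only 4 of its 9 values were above 32. Alas2 and Klf1 were related, with Pearson's r = 0.90 (exact 2-sided permutation p = 8.6e-04, adjusted over the 20 pairs 0.0172) and Spearman's rho = 0.78 (exact permutation p = 0.0188, adjusted 0.104). Without the 2 lymphomas farthest from the median of Alas2, r was 0.77. For Hemgn and Klf1, r was 0.82 (exact permutation p = 0.0071, adjusted 0.0705) and rho 0.73 (exact permutation p = 0.0311, adjusted 0.104), and r was 0.83 without the 2 farthest. For Hemgn and Alas2, r was 0.70 (exact permutation p = 0.0403, adjusted 0.145) and rho 0.63 (exact permutation p = 0.0808, adjusted 0.179), with r = 0.82 without the 2 farthest. Only the r of Alas2 and Klf1 passed after adjustment among the 20, and none of the 20 rho values did.

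Hemgn and its regulator Gata1 were related more weakly, with r = 0.44 (exact permutation p = 0.242, adjusted 0.460) and rho = 0.33 (exact permutation p = 0.385, adjusted 0.547), and r = 0.27 without the 2 farthest. With the beta-globin probe set, Hemgn gave r = 0.45 (exact permutation p = 0.224, adjusted 0.460) and rho = 0.65 (exact permutation p = 0.0666, adjusted 0.166), while Alas2 gave r = 0.79 (exact permutation p = 0.0125, adjusted 0.0832) and rho = 0.83 (exact permutation p = 0.0092, adjusted 0.0919). The difference between these coefficients was not tested. The arrays share the scaling to 1 trimmed mean, and the T cell marker sums given above differed between lymphomas; the part of either in these relations was not tested.

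Several genes of the red cell membrane were highest in the same lymphomas as Slc4a1. For 6 of the 11 tested, of 15 listed (Gypc, Rhag, Rhd, Kel, Ermap and Aqp1, named after their values were seen), mPTCL 1, 5, 8 and 9 were the 4 highest lymphomas, against 76 of 11902 genes tested (0.639%). The same held for 3 of 7 late erythroid genes (Car1, Trim10 and Cldn13), for 0 of 12 genes of haem synthesis and iron supply, 0 of 10 erythroid transcription factors and 0 of 11 genes of erythropoietin signalling. These 4 lymphomas were chosen by their Slc4a1 signal. Rhag, Rhd and Kel reached 100 in no normal array (highest 32.5, 55.6 and 86.6), so lymphomas alone took them past the filter. That favours such an order, so nothing is read from these counts. Rhag, of the Rh complex of the red cell membrane, had a signal of 90.9, 282, 366 and 602 in mPTCL 1, 5, 8 and 9 and at most 32.5 in all other arrays. Ermap, an erythroid membrane protein, had 379, 677, 796 and 2047 in those lymphomas and 22.0 to 180 elsewhere. Gypc, glycophorin C, did not stand above the normal arrays: it had 911 to 969 in resting cells, 723 to 856 in activated cells and 340 to 959 in lymphomas. The summed signal of the 4 erythroid markers on the array, of 10 listed, was 255 to 338 in resting cells, 217 to 305 in activated cells and 253 to 1268 in lymphomas.

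Tested between groups, the membrane list gave 1 called gene: Tmod1, which caps actin filaments of the membrane skeleton, rose in lymphomas against resting cells by 1.67 (SE 0.46, limma adjusted p = 0.0240), and its call was lost without resting sample 1 (adjusted p = 0.129) or 3 (0.101). No normal array of Tmod1 reached 100 (highest 67.8 resting and 97.3 activated), so it entered the test only through lymphomas. The filter thus favours a call in this direction, and nothing is read from it. No membrane gene of the 11 was called by limma between activated and resting cells or between lymphomas and activated cells, with 1 of 11 at an unadjusted p under 0.05 in each. Of all genes tested, 12.7% were called on activation, 13.9% between lymphomas and resting cells and 15.3% between lymphomas and activated cells. The median difference over the 11 was 0.37, 0.87 and 0.81 for activated less resting, lymphoma less resting and lymphoma less activated cells, beside 0.02, -0.02 and -0.08 over all genes tested.

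Most genes of haem synthesis and iron supply were not called in any 1 comparison. Of 12 tested, 2 rose and 0 fell in activated against resting cells (8.45% of all genes rose and 4.23% fell), 4 rose and 1 fell in lymphomas against resting cells (7.03% and 6.84%), and 1 rose and 1 fell in lymphomas against activated cells (7.04% and 8.28%). Abcb10, a mitochondrial transporter needed for haem synthesis in the red cell lineage, rose by 2.05 (SE 0.26, limma adjusted p = 0.0024) on activation and by 2.32 (SE 0.36, limma adjusted p = 0.0011) in lymphomas against resting cells. Alad, the enzyme that follows the Alas step, rose by 2.30 (SE 0.44, limma adjusted p = 0.0039) and by 2.01 (SE 0.44, limma adjusted p = 0.0077) in lymphomas against resting and activated cells. Its signal was 156 to 230 in resting cells, 198 to 283 in activated cells and 453 to 2510 in lymphomas, which overlapped neither normal group. Of all genes tested, 8.36% and 9.78% were higher in lymphomas than in resting and activated cells with no overlap. Alas1, the form of the Alas2 enzyme used by cells in general, was called in no comparison and ran from 623 to 852, 811 to 1175 and 605 to 1958.

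The median difference over these 12 genes was 0.31, 0.35 and -0.01 in the 3 comparisons, in the order given above. The transferrin receptor Tfrc rose by 1.08 on activation (limma adjusted p = 0.0013), a change that fell under 2-fold without resting sample 2 (0.98). It rose by 1.11 in lymphomas against resting cells (limma adjusted p = 0.0269), which was lost without any 1 of the resting samples (adjusted p = 0.0965, 0.126 and 0.0775) and fell under 2-fold without mPTCL 3 (0.99). Urod rose in lymphomas against resting cells by 1.15 (limma adjusted p = 0.0134), lost without resting sample 2 (0.0591) or 3 (0.0821). The iron transporter Slc11a2 fell by 1.56 (limma adjusted p = 0.0263) in lymphomas against resting cells, lost without any 1 resting sample (0.0795, 0.0915 and 0.126). Against activated cells it fell by 1.90 (limma adjusted p = 0.0094), lost without activated sample 2 (0.0502).

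Among erythroid transcription factors, 3 of 10 tested rose on activation (8.45% of all genes did) and none fell (4.23% did). In lymphomas 0 rose and 2 fell against each normal group. Of all genes, 7.03% rose and 6.84% fell against resting cells, and 7.04% rose and 8.28% fell against activated cells. Gata2, which acts in blood progenitors before Gata1, had a signal of 168, 151 and 150 in resting samples and 300, 392 and 488 in activated samples, a rise of 1.30 (SE 0.23, limma adjusted p = 0.0078). In lymphomas it ran from 90.4 to 316 and fell, with a difference of -1.17 from activated cells (limma adjusted p = 0.0303), a call lost without any 1 of activated samples 1, 2 and 3 (adjusted p = 0.0643, 0.112 and 0.153). Myb rose on activation by 1.66 (limma adjusted p = 0.0380) and Bcl11a by 1.06 (0.0397). The call of Myb was lost without resting sample 1, 2 or 3 (0.0656, 0.0843 and 0.120) or activated sample 1 or 3 (0.117 and 0.122). That of Bcl11a was lost without resting sample 2 or 3 (0.104 and 0.112) or activated sample 2 or 3 (0.103 and 0.0960).

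Klf3, a Krüppel-like repressor, fell in lymphomas against resting cells by 3.08 (SE 0.80, limma adjusted p = 0.0195), which was lost without any 1 of resting samples 1, 2 and 3 (adjusted p = 0.0757, 0.0853 and 0.0759). Ldb1, a partner of GATA factors, fell by 1.18 (limma adjusted p = 0.0254) and fell by 1.26 (0.0164) against resting and activated cells, and both calls were lost without any 1 sample of the normal group (0.128, 0.0833 and 0.0830 for resting, 0.0708, 0.0710 and 0.0687 for activated). The median difference over the 10 was 0.49, 0.68 and 0.07 in the order of comparisons given above. Gata3, the GATA factor of T cells, rose on activation by 1.32 (limma adjusted p = 0.0219), lost without activated sample 2 (0.0785) or 3 (0.0817). It fell in lymphomas against activated cells, with a difference of -2.04 (limma adjusted p = 0.0267), lost without activated sample 1, 2 or 3 (0.0729, 0.109 and 0.111).

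Downstream of the erythropoietin receptor, Stat5b, a signal transducer shared with many cytokine receptors, fell in lymphomas against both normal groups, with a difference of -2.17 (SE 0.47, limma adjusted p = 0.0074) from resting and of -2.80 (SE 0.46, limma adjusted p = 0.0019) from activated cells. The first call was lost without resting sample 1 (adjusted p = 0.0520). Its partner Stat5a fell against activated cells by 1.41 (limma adjusted p = 0.0113), lost without activated sample 1 (0.0547) or 2 (0.0681). Of 11 genes tested in this list, 1 rose and 1 fell on activation, 0 rose and 1 fell in lymphomas against resting cells, and 0 rose and 2 fell in lymphomas against activated cells. The shares of all genes that rose and fell were 8.45% and 4.23%, 7.03% and 6.84%, and 7.04% and 8.28% in that order. On activation the feedback inhibitor Socs2 rose by 1.79 (SE 0.26, limma adjusted p = 0.0037) and the phosphatase Ptpn6 fell by 1.24 (SE 0.10, limma adjusted p = 4.8e-04). The median difference over the 11 was 0.46, -0.41 and -0.20 in the same order.

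Of 7 late erythroid genes tested, 1 rose and 1 fell on activation, 0 were called in lymphomas against resting cells by limma (0 also at an unadjusted p under 0.05), and 1 rose in lymphomas against activated cells. Of all genes tested, 8.45% rose and 4.23% fell on activation. In lymphomas 13.9% were called against resting cells, and 7.04% rose against activated cells. Car1 is carbonic anhydrase 1 of red cells. Its signal was 59.6, 60.8 and 16.0 in resting samples, 218, 217 and 240 in activated samples and 344, 13.3, 4.83, 1.52, 656, 33.9, 45.1, 907 and 2351 in mPTCL 1 to 9. It rose on activation by 2.20 (SE 0.30, limma adjusted p = 0.0029), but in mPTCL 2, 3 and 4 it lay below the lowest resting array, in mPTCL 6 and 7 within the resting range, and above it only in mPTCL 1, 5, 8 and 9. Bpgm, which makes the red cell's regulator of oxygen release, fell on activation by 1.33 (SE 0.16, limma adjusted p = 0.0022). It rose in lymphomas against activated cells by 1.46 (limma adjusted p = 0.0157), lost without activated sample 2 (0.0750) or 3 (0.0796). The median difference over the 7 was -0.11, 1.36 and 0.90 in the order given above.

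**Figure D4:**
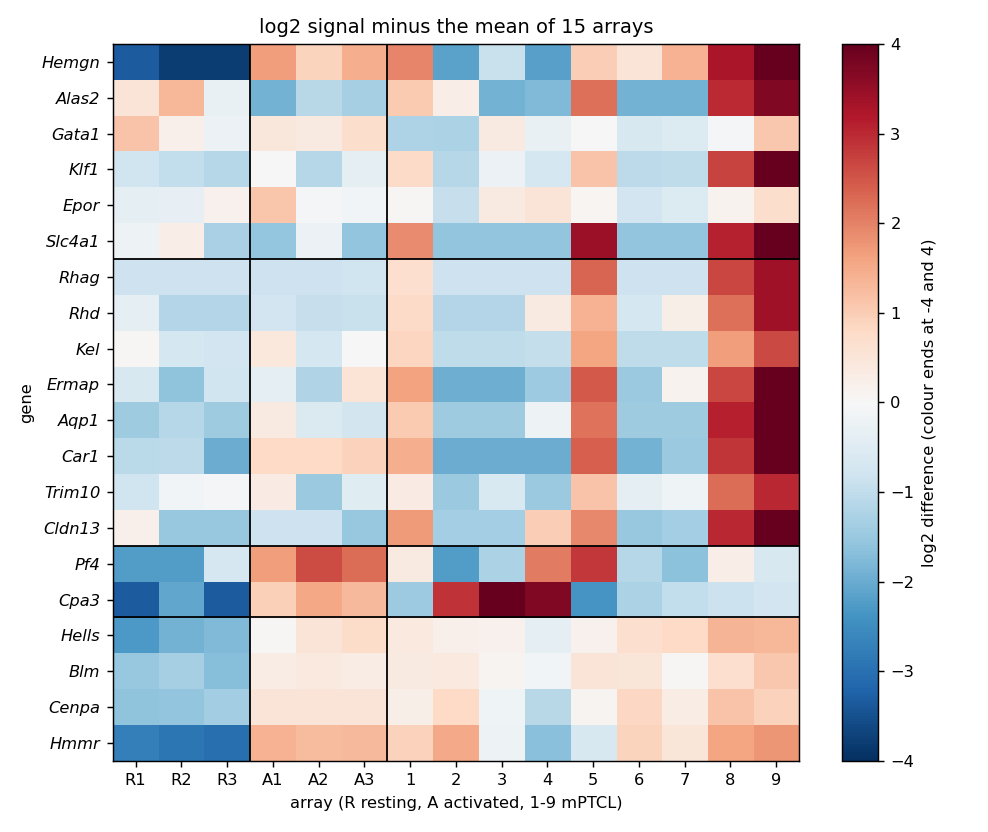
Log2 signal minus the mean of the 15 arrays (colour, ends at -4 and 4) for the 6 genes, red cell membrane and late erythroid genes that shared the 4 highest lymphomas, Pf4 and Cpa3, and 4 of the genes with profiles most like that of Hemgn. Gypc, which also shared the 4 highest lymphomas, is not drawn. Of the genes most like Hemgn, Fzd6, Tex15, Ckap2 and Kif20b are not drawn. The 5 membrane genes drawn have their highest lymphoma values in mPTCL 1, 5, 8 and 9, while Hells, Blm, Cenpa and Hmmr are lowest in the 3 resting arrays.

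Markers of megakaryocytes, platelets and mast cells included 2 genes that rose on activation. Pf4, a platelet chemokine made by megakaryocytes, had a signal of 29.7, 23.5 and 95.9 in resting samples, 487, 932 and 717 in activated samples and 15.9 to 1066 in lymphomas, and rose on activation by 3.90 (SE 0.50, limma adjusted p = 0.0023). It was the only one of 5 tested megakaryocyte and platelet markers called there (beside 8.45% of all genes called higher), and 4 of the 5 had an unadjusted p under 0.05 in limma. The signals of Itga2b (348 to 558 against 209 to 275) and Gp1bb (138 to 181 against 27.4 to 126) were also higher in every activated than in every resting array, and the differences of Ppbp and Treml1 were 1.71 and 1.28. Across all genes tested, 23.3% were higher in activated cells with no overlap. The median difference over the 5 was 1.28, beside 0.02 over all genes tested. The summed signal of the 6 on the array was 448 to 545, 1131 to 2185 and 466 to 2187 in resting cells, activated cells and lymphomas. The sixth, Gp9, was under 32 in all 6 normal arrays and was not tested. Cpa3, a mast cell protease, had 5.78, 76.6 and 30.9 in resting samples, 625, 934 and 797 in activated samples and 62.5 to 20958 in lymphomas, and rose on activation by 4.18 (SE 0.39, limma adjusted p = 8.6e-04). It was the only one called of 3 tested mast cell, basophil and eosinophil markers, whose 6 genes on the array summed to 129 to 265, 940 to 1350 and 261 to 21532. Against activated cells, 1 of these 3, Ms4a2, a chain of the IgE receptor, fell in lymphomas by 1.82 (SE 0.38, limma adjusted p = 0.0061), where 8.28% of all genes fell. All 3 activated arrays of Ms4a2 (110 to 219) reached 100 but no lymphoma did (highest 83.1), and 6 of 9 lymphomas were under 32. It passed the filter through the activated group, which favours such a fall, so nothing is read from this call. The part of megakaryocytes, platelets, mast cells, basophils and eosinophils in the Hemgn signal was not tested.

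The marker lists of other cell types gave the following counts. Beside them, 8.45% of all genes tested rose and 4.23% fell on activation. In lymphomas 7.03% of all genes rose and 6.84% fell against resting cells, and 7.04% rose and 8.28% fell against activated cells. Of 7 neutrophil markers tested, 0 rose and 1 fell on activation and 2 rose in lymphomas against activated cells, with sums of 443 to 559, 484 to 666 and 383 to 101927 in resting cells, activated cells and lymphomas. Of 5 macrophage markers tested, 0 rose and 3 fell on activation, with sums of 1657 to 3334, 346 to 406 and 354 to 33322. Of 2 endothelial markers tested, 1 fell in lymphomas against each normal group, and of 4 T cell markers 2 fell against resting and 1 against activated cells. These T cell calls were lost without any 1 of normal samples 1, 2 and 3: Cd3g (adjusted p = 0.166, 0.114 and 0.143) and Cd3d (0.0862, 0.0568 and 0.0784) against resting cells, and Cd3d (0.0820, 0.0787 and 0.0845) against activated cells. Cd3g was also lost without mPTCL 1, 2, 4, 6 or 8 (0.0522 to 0.0639). None of 4 B cell markers and not the 1 hepatocyte marker tested was called in any of the 3 comparisons.

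Likeness to Hemgn over the 15 arrays includes the step between resting and activated cells that chose it, which favours any gene with such a step. Among 11318 genes compared, the highest Pearson correlations over the 15 arrays were those of Hells (0.89), Blm (0.86), Fzd6 (0.85), Tex15 (0.84), Cenpa (0.84), Ckap2 (0.84), Hmmr (0.84) and Kif20b (0.84). Hells is a chromatin remodeller of dividing lymphoid cells, Blm a DNA helicase, Cenpa the centromeric histone, and Kif20b a kinesin of cell division. Fzd6 and Tex15, at ranks 3 and 4, are outside this description, and a shared function of the 8 genes was not tested. Over the 9 lymphomas alone the same 8 correlated at 0.88, 0.74, 0.85, 0.80, 0.60, 0.60, 0.57 and 0.57. Over the 15 arrays the other 5 red cell genes ranked 174 (Klf1, 0.71), 749 (Slc4a1, 0.52), 2023 (Epor, 0.33), 2469 (Alas2, 0.28) and 4444 (Gata1, 0.08). Over the 9 lymphomas alone, without that step, they correlated with Hemgn at 0.82 (Klf1), 0.79 (Slc4a1), 0.31 (Epor), 0.70 (Alas2) and 0.44 (Gata1). There Klf1 and Slc4a1 were above Blm, Cenpa, Ckap2, Hmmr and Kif20b, and Klf1 also above Tex15. Alas2 was above Cenpa, Ckap2, Hmmr and Kif20b. Slc4a1 had only 4 of its 9 values above 32, and all arrays share their scaling.

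Hells had a signal of 439 to 628 in resting cells, 2247 to 3574 in activated cells and 1639 to 5530 in lymphomas. Hmmr, a spindle protein, had 210 to 253, 4051 to 4474 and 532 to 5756.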

How the data were processed

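The 15 samples were each hybridised to 1 oligonucleotide array. Per the labels' protocols, a column kit served for RNA extraction, and 3′ in vitro transcription amplified the RNA of normal cells; how lymphoma RNA was labelled was not found in the labels. The authors deposited linear intensity values, made per the labels by the MAS5 method of Affymetrix Expression Console. For lymphomas this was version 1.1, and for normal cells the version is not stated, so software and group cannot be told apart. No detection calls were used, and the number of arrays limits the precision.

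Values were floored at 32 and log2 was taken. Of 45101 probe sets, 34958 had 1 symbol and were used without controls, with 34754 symbols updated by gene identifier; 932 had several symbols and 9211 none. The probe set of highest mean log2 value stood for each of 18193 genes. Genes reaching 100 in 3 or more arrays (11902) entered limma 3.58.1 in R 4.3.3 (lmFit, then eBayes with a trend, on the 2 groups of a comparison). Calls needed an adjusted p under 0.05 (Benjamini-Hochberg) and a change of 2-fold or more. Folds over a group that touches the floor are lower bounds.

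The 6 genes and the 16 lists of related genes and cell markers were chosen with earlier results of these data known. All 6 genes were named, with at most 3 called genes of largest change per list and comparison, the globin gene of highest mean, Alas1, Gata2, Gata3 and Slc4a2, and the 8 genes most correlated with Hemgn, without predicted or clone-named genes. Genes were also named, after their values were seen, where mPTCL 1, 5, 8 and 9 were the 4 highest lymphomas. Relations used exact permutation tests. The fits were tested on simulated data. Alternatives were other floors, filters, scalings, probe set rules and fits, a replicate block, and leaving out each array; leaving out mPTCL 1, 5, 8 and 9 and using the multi-symbol beta-globin probe set were added after seeing the data.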

Additional observations from a re-analysis of the deposited data

Results flagged for a closer look

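Of 59 genes looked at over the 9 lymphomas, 2 had 1 lymphoma apart from the others. In both the other 8 lymphomas lie at the lower limit, so any value above it stands apart whatever its size, and the usual chance rate of about 1 in 20 groups does not hold. Hbb-y, an embryonic beta-like globin, was 10.13 on the log2 scale (signal 1122) in mPTCL 3, with the limit at 5. Gp9, a platelet glycoprotein, was 5.42 (signal 42.8) in mPTCL 5, close to that limit.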

How the results depend on the processing

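The difference of Hemgn between activated and resting cells was 5.58 with a floor of 16 and 4.13 with a floor of 64, since 2 resting arrays lie at the floor, and 4.81 to 5.20 when 1 array was left out. With all 15 arrays in 1 fit, 397 genes were called between activated and resting cells instead of 1510. Leaving out 1 array gave 1267 to 1505 calls there, 778 to 1850 for lymphomas against resting cells (827, 778 and 806 without resting samples 1, 2 and 3) and 916 to 2167 for lymphomas against activated cells (916, 928 and 926 without activated samples 1, 2 and 3). With the replicate number as a block, 1431 genes were called between activated and resting cells and the Hemgn difference stayed at 4.98. Same-numbered deviations from the group means correlated at -0.01, 0.05 and -0.01, and the others at -0.04 to 0.05. With 3 arrays per group this cannot show whether the numbers pair the samples, which the labels do not state. Under the block Bcl11a lost its call (adjusted p = 0.0861).

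Centring arrays on their median moved the median difference of all genes to -0.26 (activated less resting, 740 higher and 1201 lower calls) and 0.31 (lymphoma less activated, 1558 and 464). Averaging each gene's probe sets gave 583 higher and 1112 lower calls in the last comparison. Gata2 and Ldb1 lost their calls between lymphomas and activated cells when arrays were centred (-0.78 and -0.87), as did Gata3 and Cd3d there (adjusted p = 0.0755 and 0.0648), Slc11a2 and Cd3g against resting cells (0.0666 and 0.0910) and Bcl11a on activation (0.0938), and Tfrc fell under 2-fold on activation (0.80). With averaged probe sets Bcl11a was 0.12 on activation, Socs2 0.88 and Ptpn6 -0.72, and Stat5a and Bpgm between lymphomas and activated cells were -0.79 and 1.06, none of them called. For the 5 genes other than Hemgn in the lymphoma comparisons, no alternative produced a call. Calls of Gata2, Gata3, Myb, Bcl11a, Car1, Bpgm, Pf4, Cpa3, Tfrc, Socs2 and Ptpn6 between activated and resting cells were lost with all 15 arrays in 1 fit. Without mPTCL 1, 5, 8 and 9, chosen by their Slc4a1 signal, Hemgn was 2.98 above resting cells and -1.998 against activated cells; Slc4a1 was -1.16 and -0.47, Klf1 0.15 and -0.33 and Alas2 -1.95 and 0.01 in the same order, and Epor -0.09 against resting cells. Signals near the floor limit the values of Hemgn in resting cells and of Klf1, Alas2 and Slc4a1.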
